A study of Mus musculus with 15 samples.

Results

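The collagen genes and the enzymes that modify, process and cross-link collagen were followed in mouse embryonic stem cells under 2 kinds of metabolic inhibition. The members were taken from the gene table by name: every protein-coding gene named as a collagen alpha chain, 44 in all, and 12 genes of collagen-modifying proteins (Lox, Loxl1, Loxl2, Loxl3, Loxl4, Plod1, Plod2, Plod3, P4ha3, Serpinh1, Bmp1 and Adamts2). These are 56 of 32152 genes. The rule uses only names and biotypes. Of the 56, 37 (25 chains and the 12 modifying genes) had a mean of at least 1 FPKM (fragments scaled to transcript length and to sequencing depth) in at least 1 group and are described here. The other 19, all chains, stayed under that level, with group means of 0.0144 to 0.9 FPKM and a highest single value of 1.28 FPKM.

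A collagen molecule is a triple helix of alpha chains, either of 1 kind or of several kinds wound together. While the chains are being made in the endoplasmic reticulum, prolyl and lysyl hydroxylases modify them, and the chaperone HSP47 binds the folded helix. After secretion, proteinases trim the propeptides of the fibrillar types, and lysyl oxidases start the cross-links that hold fibrils together. Types I, III and V form the fibrils of connective tissue, type IV forms the network of basement membranes, and the early mouse embryo is known for the thick basement membrane laid down by its endoderm.

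The cells are labelled as embryonic stem cells, pluripotent cells of the early embryo, of the strain C57BL/6. Every group grew in knockout DMEM with serum and leukemia inhibitory factor (LIF), and no feeder layer is named. There were 5 groups of 3 samples: mock treatment, 1 nM or 10 nM of oligomycin, which blocks ATP synthase in mitochondria, and 5 mM or 10 mM of 2-deoxy-D-glucose (2-DG), a sugar analog that blocks glycolysis. Inhibitors acted for 48 hours, and no time is given for the mock treatment. Whether the 3 samples of a group came from separate cultures is not stated, so the tests measure only the spread between these samples. Depth, worked out from the steps of the low values, was about 17442271 to 19245081 reads per sample, and a member such as Col1a1 rested on 47053 to 157610 reads while Col9a3 rested on 32 to 126. Of the 10 nM oligomycin samples, replicate 1 stood apart: across 13275 genes, which are not independent replicates, its deviation from the group mean followed exon length with a Spearman's rho of 0.52, against -0.46 and -0.38 in replicates 2 and 3. Such a trend was also present in mock replicates 1 and 3 (rho 0.36 and -0.35) and in 1 nM oligomycin replicate 1 (-0.31). In the remaining samples rho was -0.14 to 0.23. The tested members are long (median 6765 bases of exon against 4016 for all tested genes). In replicate 1 of 10 nM oligomycin 28 of the 37 members lay above the mean of their group. That count was not particular to it, since it ran from 6 in replicate 3 of 10 mM 2-DG to 32 in replicate 3 of 5 mM 2-DG.

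The stem cell label was checked against markers. Pou5f1, a core pluripotency factor, was at 122 ± 11.6 FPKM in the mock samples (SD, n = 3), and the 10 embryonic stem cell markers summed to 1973 to 2166 FPKM. Part of the markers of fibroblasts and smooth muscle were present in the same samples. The highest were Acta2, the smooth muscle actin, at 577 ± 10.3 FPKM and the mesenchymal filament gene Vim at 329.9 ± 12.2 FPKM. Of the 20 listed, 5 had a mock mean under 1 FPKM. Among these was Tagln, another smooth muscle marker, at 0.468 ± 0.0204 FPKM, and at 1.92 ± 0.47 FPKM with 10 nM oligomycin. In bulk RNA of this kind, fewer cells of a type and less RNA per cell cannot be told apart, and neither can more cells of a type and a rise within cells.

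Promoter sequence is shown for 4 genes, chosen after their values were seen, among those with an intact window of 250 bases before the RefSeq start (GRCm38.p6) that touches no exon. Serpinh1 was the most abundant of them in mock cells, Col8a1 rose most with 10 nM oligomycin, and Col10a1 rose and Col6a3 fell most with 10 mM 2-DG, all changes on the log2(FPKM + 1) scale. Each is written 5′ to 3′ toward the gene, with each CCAAT motif, each TATAA motif and each GGGCGG motif on either strand in capitals.
Serpinh1, chr7:99353240-99353489, minus strand: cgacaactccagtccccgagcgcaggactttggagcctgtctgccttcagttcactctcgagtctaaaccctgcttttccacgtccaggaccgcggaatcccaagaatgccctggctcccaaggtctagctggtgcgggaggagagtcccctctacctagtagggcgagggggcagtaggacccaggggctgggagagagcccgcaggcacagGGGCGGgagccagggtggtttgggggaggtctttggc
Col8a1, chr16:57754738-57754987, minus strand: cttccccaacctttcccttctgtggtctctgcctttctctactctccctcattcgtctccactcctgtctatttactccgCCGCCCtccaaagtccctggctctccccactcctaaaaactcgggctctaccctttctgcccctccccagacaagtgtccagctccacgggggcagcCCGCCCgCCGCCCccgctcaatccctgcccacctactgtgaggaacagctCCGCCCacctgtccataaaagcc
Col10a1, chr10:34389731-34389980, plus strand: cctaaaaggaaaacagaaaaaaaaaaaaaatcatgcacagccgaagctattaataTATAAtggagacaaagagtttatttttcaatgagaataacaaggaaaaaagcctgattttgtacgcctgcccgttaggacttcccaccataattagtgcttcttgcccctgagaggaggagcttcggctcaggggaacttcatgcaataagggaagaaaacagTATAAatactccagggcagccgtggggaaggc
Col6a3, chr1:90843972-90844221, minus strand: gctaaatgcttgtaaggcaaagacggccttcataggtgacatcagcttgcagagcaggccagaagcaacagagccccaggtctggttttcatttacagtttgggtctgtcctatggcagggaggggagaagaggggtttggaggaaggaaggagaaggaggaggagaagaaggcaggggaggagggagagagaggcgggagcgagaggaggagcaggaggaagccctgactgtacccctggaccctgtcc
The Col10a1 window holds TATAA in 2 places and no GGGCGG, and the Col6a3 window holds none of the 3 motifs. RefSeq windows were at hand for 26 of the 37 described genes, 28 windows in all. GGGCGG was in 20 of them (71.4%), against 59.2% of 12003 windows of tested genes and 32.7% of 32851 windows of all genes. CCAAT was in 10 (35.7%, against 35.4% and 33.8%) and TATAA in 4 (14.3%, against 12.1% and 22.8%). ACGTG, also searched on both strands, was in 4 (14.3%, against 21.5% and 16.6%). The ACGTG matches are left in lower case. A CCAAT can share its first letters with a reversed GGGCGG. A match describes the sequence, not a site of binding.

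Oligomycin raised nearly the whole described family. With 1 nM, 33 of the 37 tested members were higher than in mock cells, 21 of 25 chains and 12 of 12 modifying genes, and 1 was lower (limma, Benjamini-Hochberg adjusted p at most 0.00693 among those higher). The background was 29.8% of 13284 genes higher and 33.2% lower. The median log2 change of the members was 0.83, against -0.03 for all genes tested. With 10 nM, again 33 were higher, the same 33 genes, and 2 lower (adjusted p at most 0.000526 among those higher), against 34% and 41.7% of all genes. The median rose to 1.24, against -0.08. All 33 calls at either dose held in each of 13 alternatives that tested them, at 10 nM also in the one without its replicate 1. Of the 31 members at or over 1 FPKM in every sample, 29 were higher at each dose. The other 6 (Adamts2, Col10a1, Col15a1, Col27a1, Col4a6 and Col9a3) reached that level in only some samples, so their calls are partly set by the filter. Col4a6 reached it only in oligomycin samples and Col27a1 only in 2-DG samples, so both passed the filter through groups where they were high. Their calls in any comparison describe their values and are not taken as support.

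With 2-DG, calls went in both directions, as they did over all genes. With 5 mM, 8 of 37 members were higher (5 chains, 3 modifying genes) and 12 lower (9 chains, 3 modifying genes), against 15% and 20.3% of all genes. With 10 mM, 11 were higher (7 and 4) and 11 lower (8 and 3), against 21.4% and 26.8%. The median log2 change of the members was -0.01 at 5 mM and 0.02 at 10 mM. As shares of the members these are 21.6% higher and 32.4% lower at 5 mM, and 29.7% each way at 10 mM. They lie somewhat over the background in both directions, and the difference was not tested. They are not read as a result about the family, so what follows for 2-DG rests on single genes. Of the 31 members at or over 1 FPKM in every sample, 6 were higher and 11 lower at 5 mM, and 9 were higher and 10 lower at 10 mM. The comparisons with mock cells share the same 3 mock samples.

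**Figure D1:**
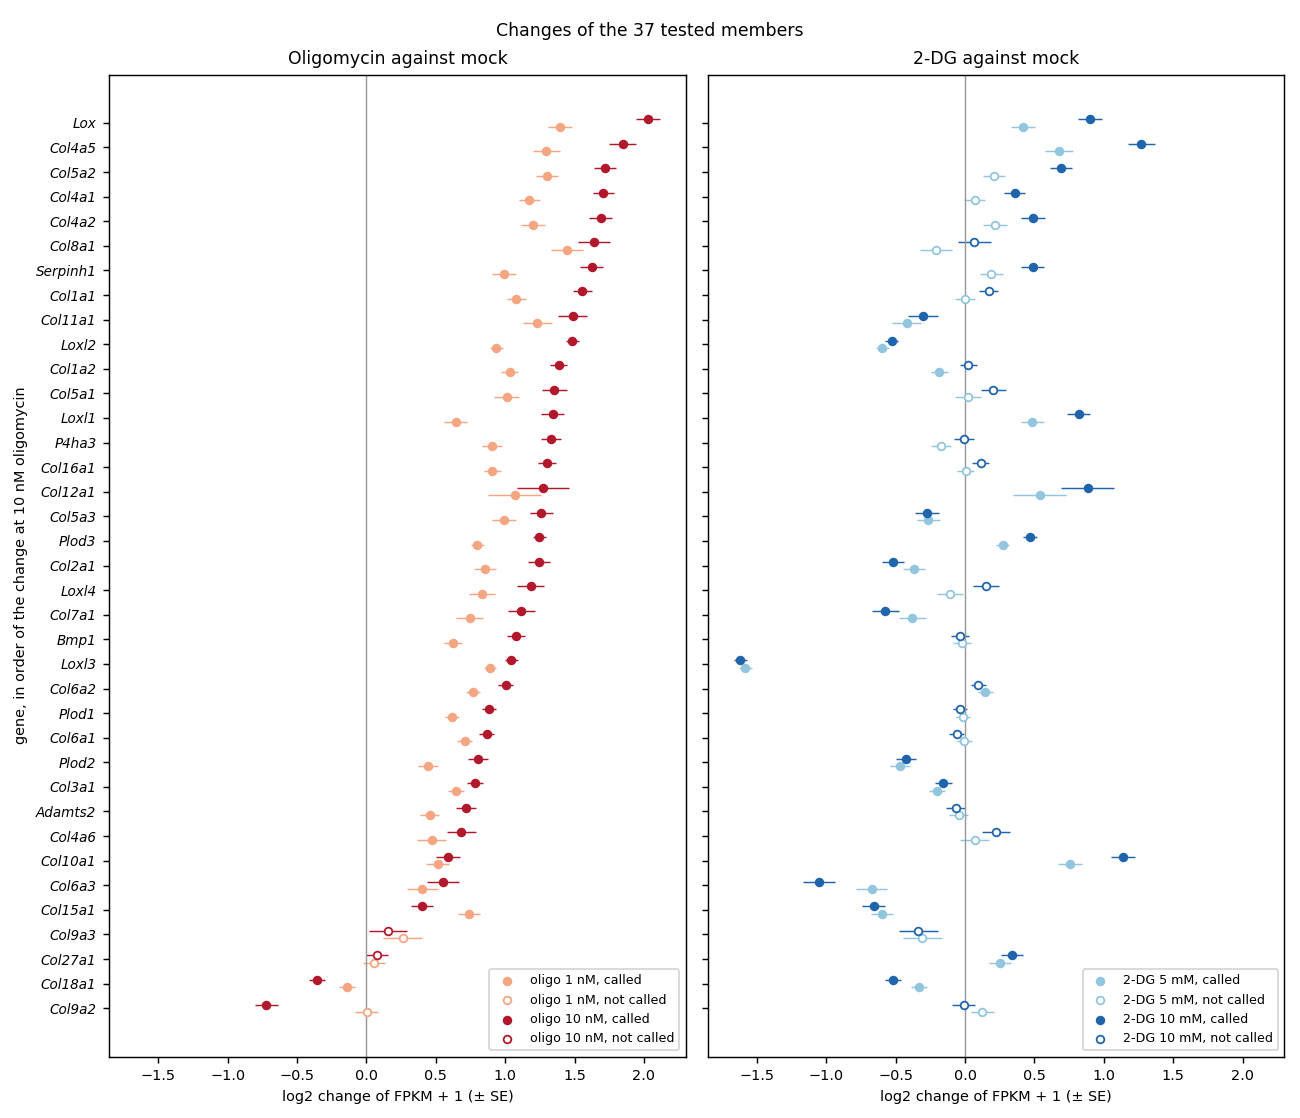
Log2 change of FPKM + 1 against mock cells (horizontal axis) for the 37 tested members (vertical axis), with oligomycin on the left and 2-DG on the right. Points are fitted changes, bars are standard errors, and filled points passed the test. With oligomycin 33 called members lie to the right of 0 at either dose, while with 10 mM 2-DG 11 called members lie on each side, from Loxl3 at -1.62 to Col4a5 at 1.27.

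Type I collagen, the main fibril-forming collagen, dominated the family in every group. Its alpha 1 chain gene Col1a1 (ENSMUSG00000001506, chromosome 11, 94936224 to 94953042; coordinates here are GRCm38) was at 426, 419 and 434 FPKM in the mock samples, 874, 889 and 947 with 1 nM oligomycin and 1294, 1229.6 and 1243 with 10 nM. With 2-DG, Col1a1 was at 432, 392 and 456 FPKM with 5 mM 2-DG and 516, 491 and 435 with 10 mM. The 3 sets of samples from mock to 10 nM oligomycin did not overlap, while the 5 mM samples spanned the mock range. The log2 changes were 1.08 ± 0.07 (± SE) and 1.56 ± 0.07 with oligomycin, a mean 2.95 times that of mock cells at 10 nM. With 10 mM 2-DG all 3 samples lay above the mock samples, but the change of 0.17 ± 0.07 did not pass (adjusted p = 0.0611).

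The partner chain gene Col1a2 (ENSMUSG00000029661, chromosome 6, 4504814 to 4541544) was at 161, 155 and 151 FPKM in the mock samples, 316, 312 and 331 with 1 nM oligomycin and 445, 385 and 399.5 with 10 nM. With 2-DG, Col1a2 was at 137, 132 and 141 FPKM with 5 mM 2-DG and 166, 159 and 149 with 10 mM. It followed Col1a1 with oligomycin, 1.03 ± 0.06 and 1.39 ± 0.06, with no overlap between doses. All 5 mM samples lay under the mock samples (-0.19 ± 0.06, adjusted p = 0.0291). That call was lost in 7 of 13 alternatives (log2 changes -0.19 to -0.15, adjusted p = 0.0632 to 0.281, lowest over all of them 0.0179), among them those without mock replicates 1 or 2 or 5 mM 2-DG replicates 1 or 2. With 10 mM the samples overlapped those of mock cells (0.02 ± 0.06, adjusted p = 0.793).

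Type III collagen, made of 1 kind of chain and found beside type I in soft tissue, moved less. Col3a1 (ENSMUSG00000026043, chromosome 1, 45311538 to 45349706) was at 45.1, 42.9 and 40.6 FPKM in the mock samples, 70.1, 63.8 and 68.7 with 1 nM oligomycin and 80.7, 70.4 and 71.9 with 10 nM. With 2-DG, Col3a1 was at 37, 36.3 and 37.9 FPKM with 5 mM 2-DG and 38.6, 39.2 and 37.2 with 10 mM. Both oligomycin groups lay above mock cells, by 0.64 ± 0.06 and 0.78 ± 0.06, and every 2-DG sample lay under the mock range. The falls with 2-DG were small, -0.20 ± 0.06 at 5 mM (adjusted p = 0.0149) and -0.16 ± 0.06 at 10 mM (adjusted p = 0.04). The first was lost in 1 of 13 alternatives (log2 change -0.17, adjusted p = 0.066, lowest over all of them 0.012), that without mock replicate 1. The second was lost in 8 of 13 alternatives (log2 changes -0.17 to -0.12, adjusted p = 0.0587 to 0.168, lowest over all of them 0.0263), among them those without mock replicates 1 or 2 or 10 mM 2-DG replicates 1, 2 or 3.

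Type V collagen, a minor fibrillar type that helps start and limit fibrils, showed its chains apart. Col5a1 was at 81.4, 74.8 and 74.1 FPKM in the mock samples, 152, 154 and 160.2 with 1 nM oligomycin and 235, 176 and 187 with 10 nM. With 2-DG, Col5a1 was at 77.9, 73 and 83.2 FPKM with 5 mM 2-DG and 95, 88.9 and 82.2 with 10 mM. Its rises with oligomycin were 1.01 ± 0.09 and 1.35 ± 0.09, and neither 2-DG dose passed the test (0.02 ± 0.09, adjusted p = 0.875, and 0.20 ± 0.09, adjusted p = 0.082). Col5a2 was at 78.9, 75 and 69.5 FPKM in the mock samples, 191, 179 and 185 with 1 nM oligomycin and 288, 223 and 234 with 10 nM. With 2-DG, Col5a2 was at 86.8, 83.9 and 87.8 FPKM with 5 mM 2-DG and 123, 121 and 118 with 10 mM. It rose further with oligomycin, 1.30 ± 0.08 and 1.72 ± 0.08, and with 10 mM 2-DG it rose by 0.69 ± 0.08, all 3 samples above those of mock cells and of 5 mM. The 5 mM samples also lay above mock cells, at 0.21 ± 0.08 (adjusted p = 0.0513).

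The third type V chain gene went the other way with 2-DG. Col5a3 was at 6.54, 7.31 and 6.41 FPKM in the mock samples, 13.3, 14.6 and 15.4 with 1 nM oligomycin and 20.4, 16.3 and 16.2 with 10 nM. With 2-DG, Col5a3 was at 5.3, 5.21 and 5.85 FPKM with 5 mM 2-DG and 5.69, 5.44 and 5.07 with 10 mM. No oligomycin sample and no 2-DG sample overlapped the mock range. Oligomycin raised Col5a3 by 0.99 ± 0.08 and 1.26 ± 0.08, and its log2 changes with 2-DG were -0.26 ± 0.08 and -0.28 ± 0.08 (adjusted p = 0.0259 and 0.0156). The 5 mM call was lost in 6 of 13 alternatives (log2 changes -0.26 to -0.21, adjusted p = 0.0584 to 0.109, lowest over all of them 0.0185), among them those without mock replicate 2 or 5 mM 2-DG replicates 1 or 2. The 10 mM call was lost in 2 of 13 alternatives (log2 changes -0.24 to -0.22, adjusted p = 0.0603 to 0.0715, lowest over all of them 0.0105), among them those without mock replicate 2 or 10 mM 2-DG replicate 3.

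The fibrillar chains known from cartilage were low and Col2a1 and Col11a1, like Col5a3, were higher with oligomycin and lower with 2-DG. Col2a1, the chain of type II collagen, was at 4.86, 5.87 and 6 FPKM in the mock samples, 10.8, 10.6 and 11.1 with 1 nM oligomycin and 15, 14.5 and 14.1 with 10 nM. With 2-DG, Col2a1 was at 3.55, 4.49 and 4.27 FPKM with 5 mM 2-DG and 3.85, 3.3 and 3.58 with 10 mM. Oligomycin raised it by 0.85 ± 0.08 and 1.24 ± 0.08, and it fell with 2-DG (-0.37 ± 0.08 and -0.52 ± 0.08), with no overlap with mock cells in any group. Col11a1, a chain of type XI collagen, was at 4.42, 4.36 and 3.68 FPKM in the mock samples, 11, 11.1 and 11.1 with 1 nM oligomycin and 16.9, 11.3 and 12.6 with 10 nM. With 2-DG, Col11a1 was at 2.82, 2.73 and 2.96 FPKM with 5 mM 2-DG and 3.08, 3.42 and 3 with 10 mM. The oligomycin groups lay clear above mock cells (1.23 ± 0.11 and 1.49 ± 0.11) and the 2-DG groups clear under them (-0.42 ± 0.11 and -0.30 ± 0.11). At 10 mM the call (adjusted p = 0.0305) was lost in 7 of 13 alternatives (log2 changes -0.30 to -0.26, adjusted p = 0.0566 to 0.0945, lowest over all of them 0.0139), among them those without mock replicates 1 or 2 or 10 mM 2-DG replicates 1 or 3. Col27a1, another fibrillar chain, had group means of 0.592 ± 0.131 FPKM in mock cells, 0.672 ± 0.0303 with 10 nM oligomycin and 1.01 ± 0.0916 with 10 mM 2-DG (SD, n = 3). It did not pass with oligomycin (0.05 ± 0.08 and 0.07 ± 0.08, adjusted p = 0.583 and 0.418) and was called higher with 2-DG, 0.25 ± 0.08 and 0.34 ± 0.08, on 119 to 253 reads per sample. Only 2-DG samples reached 1 FPKM, so Col27a1 passed the filter through them and these calls are no independent support for a rise. With a pseudocount of 0.1 the changes of Col27a1 with 2-DG were 0.53 and 0.70. The 5 mM call was lost in 4 of 12 alternatives (log2 changes 0.21 to 0.25, adjusted p = 0.0745 to 0.105, lowest over all of them 0.00559), among them those without mock replicates 1 or 3 or 5 mM 2-DG replicate 3. Markers of cartilage that are no collagens summed to only 2.97 to 4.32 FPKM over all samples, with Acan, the main cartilage proteoglycan, at 1.12 ± 0.0848 FPKM in mock cells.

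Type IV collagen builds the sheet of basement membranes, with Col4a1 and Col4a2 as its ubiquitous chains. Col4a1 (ENSMUSG00000031502, chromosome 8, 11198423 to 11312826) was at 102, 95.6 and 92.6 FPKM in the mock samples, 212, 219.5 and 226 with 1 nM oligomycin and 367, 289 and 302 with 10 nM. With 2-DG, Col4a1 was at 103, 97.5 and 103 FPKM with 5 mM 2-DG and 129, 123 and 119.9 with 10 mM. Oligomycin raised it by 1.17 ± 0.08 and 1.71 ± 0.08, the second a mean 3.3 times that of mock cells, and replicate 1 of 10 nM was the highest. The 10 mM 2-DG samples lay above the mock samples (0.36 ± 0.08), while those of 5 mM overlapped them (0.07 ± 0.08, adjusted p = 0.522).

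Col4a2 starts head to head with Col4a1 on the opposite strand (ENSMUSG00000031503, chromosome 8, 11312805 to 11449287) and their first exons share 22 bases. It was at 79.6, 75.3 and 75.7 FPKM in the mock samples, 169, 179.9 and 185 with 1 nM oligomycin and 295, 224 and 235 with 10 nM. With 2-DG, Col4a2 was at 91.1, 84.6 and 92.8 FPKM with 5 mM 2-DG and 114, 109 and 103 with 10 mM. All treated samples lay above the mock samples. The changes were 1.20 ± 0.08 and 1.69 ± 0.08 with oligomycin and 0.49 ± 0.08 with 10 mM 2-DG, and that of 5 mM did not pass (0.22 ± 0.08, adjusted p = 0.0629).

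Col4a5, an X-linked chain best known from the basement membrane of the kidney glomerulus, had larger fitted changes with 2-DG than Col4a1 and Col4a2, a difference between genes that was not tested. It was at 8.95, 7.84 and 6.85 FPKM in the mock samples, 21.2, 20.3 and 20.7 with 1 nM oligomycin and 36, 27.4 and 29.5 with 10 nM. With 2-DG, Col4a5 was at 13.8, 11.7 and 14 FPKM with 5 mM 2-DG and 21, 20.4 and 19.6 with 10 mM. Every treated group lay above mock cells, and the 10 mM 2-DG samples reached the range of 1 nM oligomycin. The changes were 1.30 ± 0.10, 1.85 ± 0.10, 0.68 ± 0.10 and 1.27 ± 0.10 in the order of the groups. Its neighbor Col4a6 was far lower, with means of 0.424 ± 0.134 FPKM in mock cells and 1.29 ± 0.274 with 10 nM oligomycin (SD, n = 3). Col4a6 was called higher with oligomycin (0.47 ± 0.10 and 0.68 ± 0.10) and did not pass with 2-DG (0.07 ± 0.10 and 0.22 ± 0.10, adjusted p = 0.646 and 0.0907). Col4a6 passed the filter only through oligomycin samples, so its calls there are no independent support for a rise. With the pseudocount of 0.1 its rises with oligomycin were 1.06 and 1.43, and its ratios of means to mock cells were 2.28 and 3.05.

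Type XVIII collagen is a proteoglycan of basement membranes and the source of the fragment endostatin. Its gene Col18a1 (ENSMUSG00000001435, chromosome 10, 77052178 to 77166548) was the sixth most abundant described member in mock cells and was lower, not higher, in the treated groups. It was at 76.5, 79 and 83 FPKM in the mock samples, 67.2, 73.3 and 75.5 with 1 nM oligomycin and 64.2, 59.96 and 61 with 10 nM. With 2-DG, Col18a1 was at 62.7, 61 and 65.5 FPKM with 5 mM 2-DG and 58.8, 54.4 and 52.4 with 10 mM. Each treated sample lay under every mock sample. The falls were -0.36 ± 0.06 with 10 nM oligomycin, -0.33 ± 0.06 with 5 mM and -0.52 ± 0.06 with 10 mM 2-DG. With 1 nM oligomycin the change was -0.14 ± 0.06 (adjusted p = 0.0454). That call was lost in 9 of 13 alternatives (log2 changes -0.16 to -0.02, adjusted p = 0.0608 to 0.823, lowest over all of them 0.0315), among them those without mock replicates 2 or 3 or 1 nM oligomycin replicates 1 or 2. Col15a1, which encodes the related type XV collagen, had means of 0.968 ± 0.0957 FPKM in mock cells, 2.28 ± 0.0686 with 1 nM and 1.6 ± 0.275 with 10 nM oligomycin, and 0.245 ± 0.017 with 10 mM 2-DG (SD, n = 3). It rose with oligomycin, more at the lower dose (0.74 ± 0.08 and 0.40 ± 0.08), and fell with 2-DG (-0.60 ± 0.08 and -0.66 ± 0.08). With a pseudocount of 0.1 in place of 1, the changes of Col15a1 were 1.16, 0.66, -1.43 and -1.63 in the order of the groups.

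**Figure D2:**
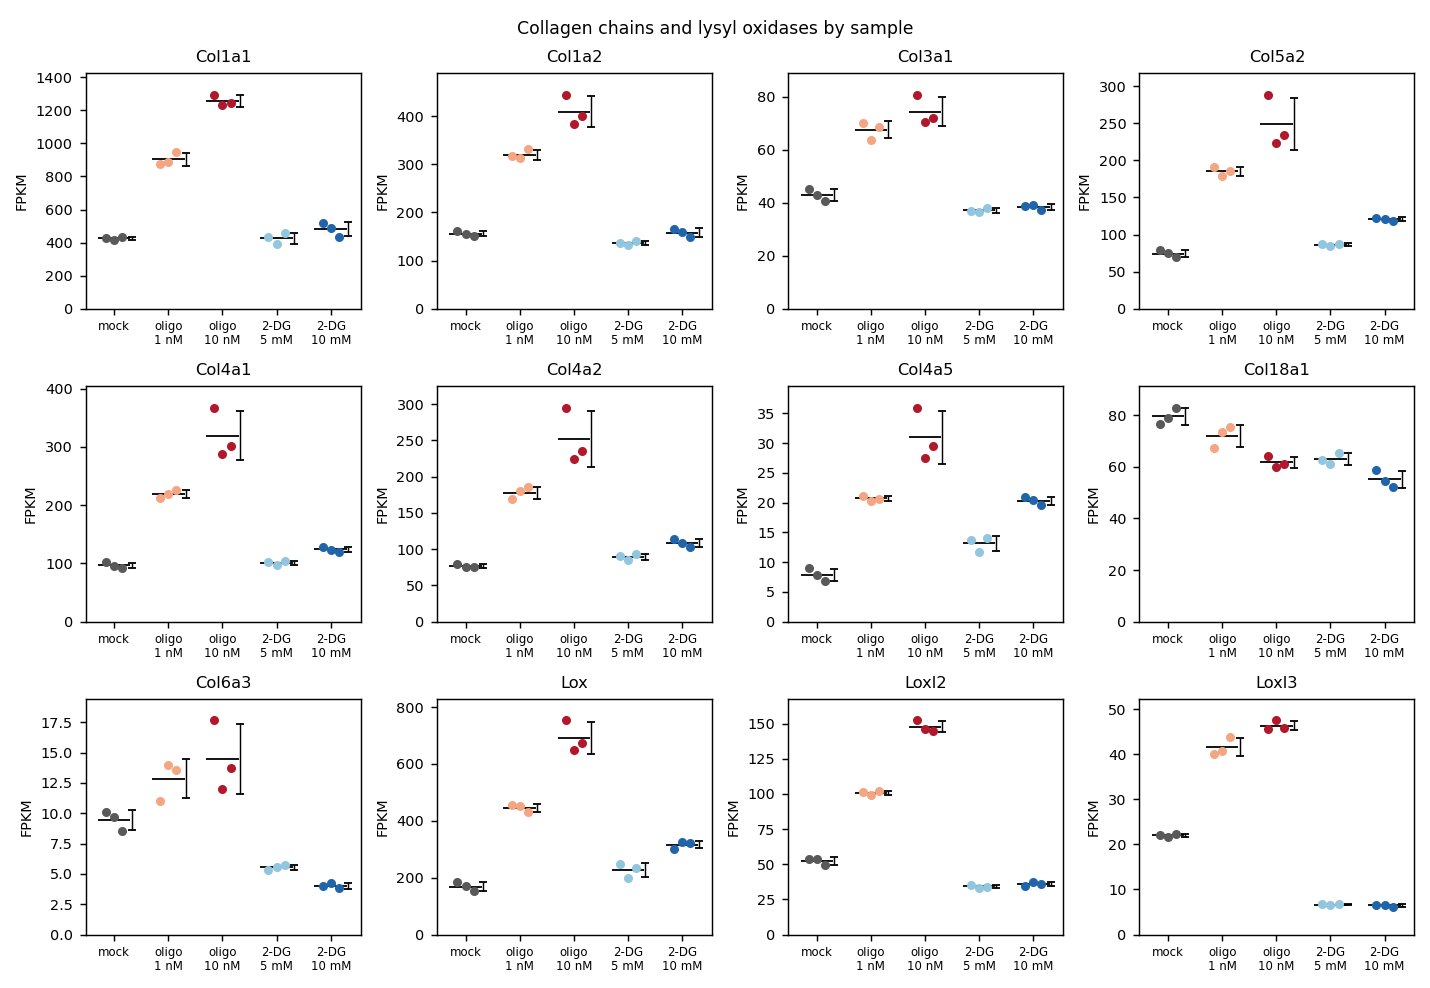
FPKM of 9 collagen chain genes and 3 lysyl oxidase genes (vertical axes, each from 0) in the 5 groups (horizontal axes); points are single samples, spread sideways only to be seen, horizontal lines are group means and the bars beside them the SD. Loxl3 lies at 21.5 to 22.2 FPKM in mock cells and at 6.14 to 6.8 FPKM with 2-DG. Col18a1 lies lower in every treated sample than in any mock sample. Replicate 1 of 10 nM oligomycin is the highest of its group for every gene shown except Loxl3.

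Type VI collagen forms beaded microfilaments from 3 different chains, and here the chains parted. Col6a1 was at 35, 32.3 and 32.2 FPKM in the mock samples, 51.8, 55 and 57.4 with 1 nM oligomycin and 62.6, 61.6 and 59.4 with 10 nM. With 2-DG, Col6a1 was at 32.8, 31.8 and 34.5 FPKM with 5 mM 2-DG and 33.4, 31.5 and 30.3 with 10 mM. Its rises with oligomycin were 0.71 ± 0.05 and 0.87 ± 0.05, and its 2-DG samples overlapped those of mock cells (0.00 ± 0.05 and -0.06 ± 0.05, adjusted p = 0.958 and 0.385). Col6a2 was at 9.81, 10.3 and 9.87 FPKM in the mock samples, 16.8, 18.2 and 18.2 with 1 nM oligomycin and 21.9, 21.8 and 19.5 with 10 nM. With 2-DG, Col6a2 was at 11, 11 and 11.5 FPKM with 5 mM 2-DG and 10.9, 11.1 and 10.3 with 10 mM. Its rises with oligomycin were 0.77 ± 0.05 and 1.00 ± 0.05. At 5 mM 2-DG it stood slightly higher (0.15 ± 0.05, adjusted p = 0.0477), a call lost in 8 of 13 alternatives (log2 changes 0.12 to 0.17, adjusted p = 0.0619 to 0.152, lowest over all of them 0.0333), among them those without mock replicates 1, 2 or 3 or 5 mM 2-DG replicates 1, 2 or 3. At 10 mM its samples overlapped those of mock cells (0.10 ± 0.05, adjusted p = 0.154).

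The third chain gene of type VI, Col6a3, was at 10.1, 9.72 and 8.56 FPKM in the mock samples, 11, 13.9 and 13.6 with 1 nM oligomycin and 17.7, 12 and 13.7 with 10 nM. With 2-DG, Col6a3 was at 5.31, 5.55 and 5.76 FPKM with 5 mM 2-DG and 4, 4.29 and 3.81 with 10 mM. It rose with oligomycin by 0.40 ± 0.11 and 0.55 ± 0.11, with the doses overlapping. The 2-DG samples lay under every mock sample, and those of 10 mM under every sample of 5 mM. The falls were -0.67 ± 0.11 and -1.05 ± 0.11, a mean 0.426 times that of mock cells at 10 mM.

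The remaining chains belong to fibril-associated, anchoring and short-chain types. Col12a1, a fibril-associated collagen, was at 25.7, 20.8 and 18.1 FPKM in the mock samples, 40.4, 49.6 and 47.8 with 1 nM oligomycin and 79.2, 38.4 and 48.4 with 10 nM. With 2-DG, Col12a1 was at 31, 31.6 and 31.5 FPKM with 5 mM 2-DG and 40.1, 40.5 and 39.7 with 10 mM. Every treated sample lay above the mock samples, and the 10 nM samples were widely spread around those of 10 mM 2-DG. The changes were 1.07 ± 0.19, 1.27 ± 0.19, 0.54 ± 0.19 and 0.88 ± 0.19. The call at 5 mM (adjusted p = 0.0409) was lost in 7 of 13 alternatives (log2 changes 0.42 to 0.55, adjusted p = 0.0584 to 0.148, lowest over all of them 0.0069), among them those without mock replicates 2 or 3 or 5 mM 2-DG replicates 1, 2 or 3. Col16a1, of the same class, was at 10.3, 9.84 and 9.73 FPKM in the mock samples, 20.3, 18.8 and 19.7 with 1 nM oligomycin and 27.4, 26.3 and 24.4 with 10 nM. With 2-DG, Col16a1 was at 9.84, 9.46 and 10.7 FPKM with 5 mM 2-DG and 11.6, 11 and 9.94 with 10 mM. Oligomycin raised it by 0.91 ± 0.06 and 1.30 ± 0.06, and its 2-DG samples overlapped those of mock cells (0.00 ± 0.06 and 0.11 ± 0.06, adjusted p = 0.976 and 0.163).

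Col7a1, the chain of the anchoring fibrils of skin, was at 6.3, 6.77 and 5.7 FPKM in the mock samples, 10.2, 10.9 and 12.4 with 1 nM oligomycin and 16, 14.3 and 13.8 with 10 nM. With 2-DG, Col7a1 was at 4.19, 4.23 and 5.33 FPKM with 5 mM 2-DG and 4.28, 3.91 and 3.42 with 10 mM. Oligomycin raised it by 0.74 ± 0.10 and 1.11 ± 0.10, and it fell with 2-DG (-0.38 ± 0.10 and -0.58 ± 0.10), without overlap with mock cells. Col8a1, a short-chain network collagen, was at 35.2, 31.8 and 26 FPKM in the mock samples, 89.1, 87 and 80.7 with 1 nM oligomycin and 120.3, 83 and 95 with 10 nM. With 2-DG, Col8a1 was at 26.5, 25.7 and 27.3 FPKM with 5 mM 2-DG and 31.5, 32.2 and 33.2 with 10 mM. It rose by 1.44 ± 0.12 at 1 nM, a mean 2.76 times that of mock cells, and by 1.64 ± 0.12 at 10 nM, and its 2-DG samples overlapped those of mock cells (-0.21 ± 0.12 and 0.07 ± 0.12, adjusted p = 0.183 and 0.664).

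Col10a1, the short-chain collagen of growth plate cartilage, was low and rose in all 4 treated groups. It was at 1.35, 0.858 and 1.15 FPKM in the mock samples, 2.08, 1.97 and 1.99 with 1 nM oligomycin and 2.34, 2.2 and 2 with 10 nM. With 2-DG, Col10a1 was at 2.55, 2.57 and 2.58 FPKM with 5 mM 2-DG and 3.5, 4.1 and 3.37 with 10 mM. All 6 of these samples lay above every mock and every oligomycin sample. The changes were 0.51 ± 0.08 and 0.59 ± 0.08 with oligomycin and 0.76 ± 0.08 and 1.14 ± 0.08 with 2-DG, on 48 to 247 reads per sample. With the pseudocount of 0.1 they were 0.81, 0.92, 1.15 and 1.64. The whole span of Col10a1 lies within Nt5dc1 on the opposite strand, with 18 shared exon bases, and the sources used here do not state that strand entered the counting. Nt5dc1 itself fell in those groups (-0.30 ± 0.07, -0.65 ± 0.07, -0.58 ± 0.07 and -0.68 ± 0.07). The type IX chain genes, fibril-associated chains known from cartilage, had group means up to 3.88 FPKM for Col9a2 and 1.3 FPKM for Col9a3. Col9a2 fell with 10 nM oligomycin, from 3.27, 3.45 and 3.7 FPKM in mock cells to 1.39, 2.05 and 1.72 (-0.72 ± 0.08), without overlap, and did not pass in the other 3 groups (0.00 ± 0.08, 0.12 ± 0.08 and -0.01 ± 0.08, adjusted p = 0.997, 0.267 and 0.93). Col9a3 passed in no comparison with mock cells (log2 changes 0.26 ± 0.14, 0.15 ± 0.14, -0.31 ± 0.14 and -0.34 ± 0.14, adjusted p = 0.116, 0.325, 0.102 and 0.0591). It shares 6.07% of its exon bases with Tcfl5, which fell in all 4 groups (-0.42 ± 0.06, -0.79 ± 0.06, -0.63 ± 0.06 and -0.86 ± 0.06).

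Among the proteins that act inside the endoplasmic reticulum, Serpinh1 (ENSMUSG00000070436, chromosome 7, 99345376 to 99353239), which encodes the collagen chaperone HSP47, was second to Col1a1 in level. It was at 213, 231 and 243 FPKM in the mock samples, 444, 463 and 462 with 1 nM oligomycin and 605, 776 and 753 with 10 nM. With 2-DG, Serpinh1 was at 260.1, 254 and 268 FPKM with 5 mM 2-DG and 330.3, 335 and 298 with 10 mM. All treated samples lay above the mock samples, and replicate 1 of 10 nM oligomycin was the lowest of its group. The rises were 0.99 ± 0.08 and 1.62 ± 0.08 with oligomycin and 0.49 ± 0.08 with 10 mM 2-DG, while 5 mM did not pass (0.19 ± 0.08, adjusted p = 0.0997). P4ha3, a catalytic subunit of prolyl 4-hydroxylase, was at 4.55, 5.62 and 5.12 FPKM in the mock samples, 9.92, 10.6 and 10.6 with 1 nM oligomycin and 13, 15.1 and 14.9 with 10 nM. With 2-DG, P4ha3 was at 4.27, 4.27 and 4.65 FPKM with 5 mM 2-DG and 4.85, 5.39 and 4.9 with 10 mM. With oligomycin it rose (0.91 ± 0.07 and 1.33 ± 0.07), and its 2-DG samples overlapped those of mock cells (-0.17 ± 0.07 and -0.01 ± 0.07, adjusted p = 0.0804 and 0.921).

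The 3 lysyl hydroxylases differed with 2-DG. Plod1 had means of 8.18 ± 0.379 FPKM in mock cells, 15.9 ± 0.207 with 10 nM oligomycin and 7.97 ± 0.518 with 10 mM 2-DG (SD, n = 3), with changes of 0.62 ± 0.05, 0.88 ± 0.05, -0.01 ± 0.05 and -0.03 ± 0.05, of which those with 2-DG did not pass (adjusted p = 0.859 and 0.613). Plod2, which hydroxylates the telopeptide lysines used for stable cross-links, was at 26.9, 23.5 and 21.6 FPKM in the mock samples, 34.6, 32.3 and 31.7 with 1 nM oligomycin and 41.9, 43.1 and 42.2 with 10 nM. With 2-DG, Plod2 was at 17.2, 16.9 and 16.8 FPKM with 5 mM 2-DG and 16.1, 17.5 and 19.2 with 10 mM. It rose with oligomycin (0.45 ± 0.07 and 0.80 ± 0.07) and fell with 2-DG (-0.47 ± 0.07 and -0.43 ± 0.07), with no overlap with mock cells. Plod3, which also adds sugars to hydroxylysine, was at 17.8, 18.2 and 18.5 FPKM in the mock samples, 32.2, 31.3 and 33.7 with 1 nM oligomycin and 43, 45.9 and 44.6 with 10 nM. With 2-DG, Plod3 was at 22.3, 21.5 and 22.6 FPKM with 5 mM 2-DG and 26.3, 26.5 and 23.9 with 10 mM. It rose in all 4 treated groups, by 0.80 ± 0.05, 1.25 ± 0.05, 0.27 ± 0.05 and 0.47 ± 0.05, again with no overlap. Plod3 shares 11.7% of its exon bases with Znhit1 on the opposite strand. Znhit1 was called lower with 1 nM and 10 nM oligomycin (-0.45 ± 0.11 and -0.26 ± 0.11) and with 10 mM 2-DG (-0.41 ± 0.11). With 5 mM 2-DG it did not pass (-0.24 ± 0.11, limma, adjusted p = 0.0963).

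The 2 procollagen proteinases rose with oligomycin. Bmp1, the proteinase that removes the C-terminal propeptides and also activates lysyl oxidase, was at 38.1, 39.3 and 40.4 FPKM in the mock samples, 57.4, 61 and 64.7 with 1 nM oligomycin and 81.2, 86.6 and 84.6 with 10 nM. With 2-DG, Bmp1 was at 37.6, 36.8 and 41.6 FPKM with 5 mM 2-DG and 39.7, 40.2 and 35 with 10 mM. The oligomycin groups lay above mock cells in order of dose (0.62 ± 0.06 and 1.08 ± 0.06), and the 2-DG samples overlapped those of mock cells (-0.02 ± 0.06 and -0.04 ± 0.06, adjusted p = 0.81 and 0.67). Adamts2, which removes the N-terminal propeptides, was far less abundant, with means of 1.04 ± 0.0169 FPKM in mock cells, 1.79 ± 0.0945 and 2.35 ± 0.0787 with oligomycin, and 0.949 ± 0.159 with 10 mM 2-DG (SD, n = 3). Its changes were 0.45 ± 0.07 and 0.72 ± 0.07 with oligomycin (0.73 and 1.11 with the pseudocount of 0.1), and those with 2-DG did not pass (-0.05 ± 0.07 and -0.07 ± 0.07, adjusted p = 0.651 and 0.453).

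All 5 lysyl oxidase genes rose with oligomycin, while with 2-DG Lox and Loxl1 rose and Loxl2 and Loxl3 fell. Lox (ENSMUSG00000024529, chromosome 18, 52516069 to 52529867), the main collagen and elastin cross-linking oxidase, was at 183, 170.1 and 154 FPKM in the mock samples, 454, 454 and 429 with 1 nM oligomycin and 753, 648 and 673 with 10 nM. With 2-DG, Lox was at 248, 198 and 234 FPKM with 5 mM 2-DG and 302, 326 and 321 with 10 mM. All treated samples lay above the mock samples, and the doses of either inhibitor did not overlap. The rises were 1.40 ± 0.09 and 2.03 ± 0.09 with oligomycin, a mean 4.09 times that of mock cells at 10 nM, and 0.42 ± 0.09 and 0.90 ± 0.09 with 2-DG. Loxl1, which is tied to elastic fibers, was at 30.1, 29.98 and 32.1 FPKM in the mock samples, 46.6, 48.3 and 50.7 with 1 nM oligomycin and 74.9, 82 and 81.5 with 10 nM. With 2-DG, Loxl1 was at 47.9, 38.8 and 43.8 FPKM with 5 mM 2-DG and 60.8, 56.2 and 48.5 with 10 mM. It too rose in all 4 groups, by 0.64 ± 0.08, 1.34 ± 0.08, 0.48 ± 0.08 and 0.82 ± 0.08, and the 10 mM samples overlapped the range of 1 nM oligomycin.

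Loxl2, which acts on basement membrane type IV collagen, was at 54.1, 53.4 and 49.3 FPKM in the mock samples, 101, 99.1 and 102 with 1 nM oligomycin and 152, 146 and 145 with 10 nM. With 2-DG, Loxl2 was at 35.3, 33.3 and 34 FPKM with 5 mM 2-DG and 34.6, 37.1 and 36.1 with 10 mM. It rose in order of oligomycin dose (0.94 ± 0.05 and 1.48 ± 0.05) and fell at both doses of 2-DG (-0.60 ± 0.05 and -0.53 ± 0.05). Loxl3 (ENSMUSG00000000693, chromosome 6, 83034173 to 83052562) had the largest fall from mock cells on the log2(FPKM + 1) scale. By the ratio of means the low Col15a1 fell further with 10 mM 2-DG, to 0.253 times mock cells. Loxl3 was at 22.2, 21.5 and 22.2 FPKM in the mock samples, 40.2, 40.8 and 43.9 with 1 nM oligomycin and 45.7, 47.5 and 45.9 with 10 nM. With 2-DG, Loxl3 was at 6.71, 6.46 and 6.8 FPKM with 5 mM 2-DG and 6.66, 6.63 and 6.14 with 10 mM. The oligomycin groups lay above mock cells (0.89 ± 0.05 and 1.04 ± 0.05), while the 2-DG groups lay far under them and overlapped each other. The falls were -1.59 ± 0.05 and -1.62 ± 0.05, a mean 0.295 times that of mock cells at 10 mM. Loxl3 shares 11.6% of its exon bases with Htra2 on the opposite strand. Htra2 rose with oligomycin, as Loxl3 did, by 0.24 ± 0.08 and 0.50 ± 0.08 (limma, adjusted p = 0.016 and 3.89e-05). What part the shared bases have in the Loxl3 rises was not tested. With 2-DG, Htra2 did not pass (-0.05 ± 0.08 and 0.05 ± 0.08, adjusted p = 0.629 and 0.651). Loxl4, another oxidase of the family, was at 4.22, 3.61 and 3.48 FPKM in the mock samples, 6.98, 7.55 and 7.9 with 1 nM oligomycin and 11.7, 8.3 and 9.72 with 10 nM. With 2-DG, Loxl4 was at 3.27, 3.45 and 3.52 FPKM with 5 mM 2-DG and 4.33, 4.56 and 3.98 with 10 mM. It rose with oligomycin (0.83 ± 0.10 and 1.18 ± 0.10) and overlapped mock cells with 2-DG (-0.11 ± 0.10 and 0.15 ± 0.10, adjusted p = 0.406 and 0.208).

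Ratios of FPKM between genes of the same sample, which do not depend on the depth of the sample, show how far partner chains moved together. They can still carry the trend with exon length described above where the 2 genes differ in length, and its part was not tested. Col1a1 has 6563 bases of exon against 12426 for Col1a2, and Col6a1 has 4380 against 11963 for Col6a3. The ratio of Col1a1 to Col1a2 was 2.64, 2.7 and 2.88 in the mock samples, 2.91, 3.2 and 3.11 with 10 nM oligomycin and 3.1, 3.09 and 2.92 with 10 mM 2-DG. It lay above the mock samples, by a small margin, in these 2 treated groups and also with 5 mM 2-DG (3.16, 2.96 and 3.22). With 1 nM oligomycin (2.76, 2.85 and 2.86) it overlapped them. The ratio of Col1a1 to Col3a1 was 9.45, 9.77 and 10.7 in the mock samples, 16, 17.5 and 17.3 with 10 nM oligomycin and 13.4, 12.5 and 11.7 with 10 mM 2-DG, with no overlap with mock cells. That of Col4a1 to Col4a2 was 1.28, 1.27 and 1.22 in the mock samples, 1.24, 1.29 and 1.28 with 10 nM oligomycin, 1.13, 1.15 and 1.12 with 5 mM and 1.13, 1.13 and 1.17 with 10 mM 2-DG, lower in all 6 samples with 2-DG than in any other sample shown. The ratio of Col5a1 to Col5a2 was 1.03, 0.998 and 1.07 in mock cells, 0.816, 0.786 and 0.799 with 10 nM oligomycin and 0.774, 0.734 and 0.697 with 10 mM 2-DG, lower in both treated groups. The ratio of Col6a1 to Col6a3 was 3.46, 3.32 and 3.76 in mock cells, 6.18, 5.72 and 5.99 with 5 mM and 8.34, 7.35 and 7.97 with 10 mM 2-DG. With 10 nM oligomycin the ratio of Col6a1 to Col6a3 was spread, at 3.54, 5.14 and 4.32, lowest in replicate 1. That of Lox to Loxl3 was 8.28, 7.89 and 6.9 in mock cells, 16.5, 13.6 and 14.6 with 10 nM oligomycin and 45.3, 49.2 and 52.2 with 10 mM 2-DG. No test was run on these ratios; 3 samples against 3 cannot go under p = 0.1 in a two-sided exact permutation test.

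**Figure D3:**
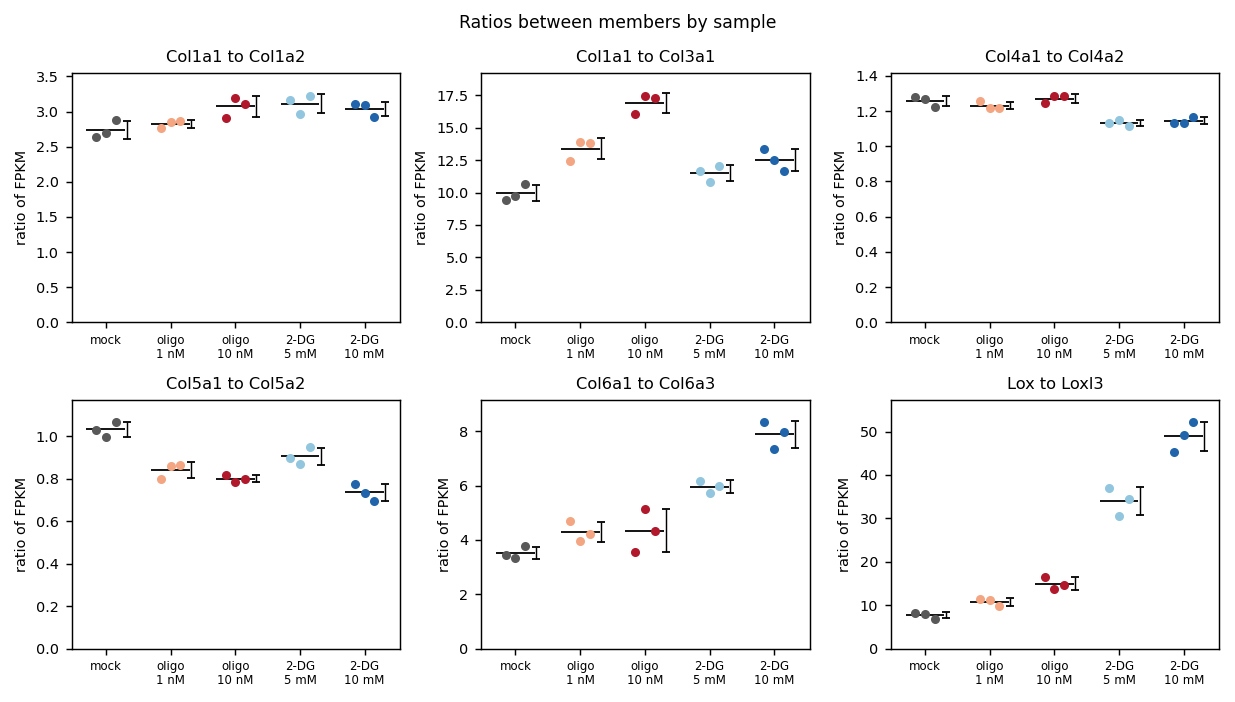
Ratios of FPKM between 2 members of the same sample (vertical axes, each from 0) in the 5 groups (horizontal axes); points are samples, lines group means and bars the SD. Col6a1 to Col6a3 and Lox to Loxl3 are highest with 10 mM 2-DG, at means of 7.88 and 48.9, and Col4a1 to Col4a2 is lowest in the 2-DG groups, at 1.13 and 1.14.

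As a share of all expression, the 44 collagen chains took 0.383 ± 0.0218% of the summed FPKM in mock cells (SD, n = 3), 0.793 ± 0.0245% with 1 nM and 1.04 ± 0.167% with 10 nM oligomycin. With 2-DG the shares were 0.386 ± 0.0186% at 5 mM and 0.448 ± 0.0247% at 10 mM. At 10 nM, replicate 1 stood at 1.23%, and replicates 2 and 3 at 0.92% and 0.978%. The 5 lysyl oxidase genes summed to 278 ± 16.7 FPKM in mock cells, 975 ± 55.9 with 10 nM oligomycin and 418 ± 11.3 with 10 mM 2-DG, and the part of that sum held by Loxl3 was 7.94 ± 0.528%, 4.77 ± 0.352% and 1.55 ± 0.0761% in those groups.

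The step from 1 to 10 nM oligomycin raised 25 members further (13 chains and all 12 modifying genes) and lowered 3, against 18.7% of all genes higher and 27.6% lower. Scaling moved that background, to 25.2% and 22.9% under quantile normalization and 23.1% and 24.1% under median ratio scaling, with 25 and 27 members higher. The largest steps were those of Loxl1 (0.70 ± 0.08), Serpinh1 (0.63 ± 0.08) and Lox (0.63 ± 0.09), and those lower were Col9a2 (-0.72 ± 0.08), Col15a1 (-0.34 ± 0.08) and Col18a1 (-0.22 ± 0.06). Without replicate 1 of 10 nM, 23 members were higher and 3 lower, and the median step of the members was 0.25 in place of 0.34. Among the calls higher, that of Col5a1 (0.34 ± 0.09) was lost in 1 of 13 alternatives (log2 change 0.24, adjusted p = 0.142, lowest over all of them 0.00231), under quantile normalization. That of Col5a3 (0.27 ± 0.08) was lost in 3 of 13 alternatives (log2 changes 0.17 to 0.27, adjusted p = 0.0703 to 0.0815, lowest over all of them 0.00898), among them those without 1 nM oligomycin replicate 1 or 10 nM oligomycin replicate 1. That of Col6a1 (0.16 ± 0.05) was lost in 6 of 13 alternatives (log2 changes 0.12 to 0.16, adjusted p = 0.0549 to 0.114, lowest over all of them 0.00888), among them those without 1 nM oligomycin replicates 1 or 2 or 10 nM oligomycin replicates 1 or 2. That of Loxl3 (0.15 ± 0.05) was lost in 4 of 13 alternatives (log2 changes 0.13 to 0.15, adjusted p = 0.0513 to 0.0818, lowest over all of them 0.00267), among them those without 1 nM oligomycin replicates 1 or 2 or 10 nM oligomycin replicate 2. The other 21 calls higher, and those lower, held in all alternatives that tested them.

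The step from 5 to 10 mM 2-DG raised 7 members, against 3.41% of all genes, and lowered 0 (limma; 2 at an unadjusted p under 0.05), against 2.45%. Lox (0.48 ± 0.09), Col4a5 (0.59 ± 0.10) and Col5a2 (0.48 ± 0.08) passed in every alternative. Col10a1 (0.38 ± 0.08, adjusted p = 0.0186) lost its call in 4 of 12 alternatives (log2 changes 0.32 to 0.39, adjusted p = 0.0547 to 0.0939, lowest over all of them 0.0214), among them those without 5 mM 2-DG replicates 1, 2 or 3 or 10 mM 2-DG replicate 2. Col4a1 (0.29 ± 0.08, adjusted p = 0.0391) lost it in 9 of 13 alternatives (log2 changes 0.26 to 0.31, adjusted p = 0.0651 to 0.206, lowest over all of them 0.0161), among them those without 5 mM 2-DG replicates 1, 2 or 3 or 10 mM 2-DG replicates 1, 2 or 3. Loxl1 (0.33 ± 0.08, adjusted p = 0.0321) lost it in 7 of 13 alternatives (log2 changes 0.26 to 0.34, adjusted p = 0.0566 to 0.135, lowest over all of them 0.0141), among them those without 5 mM 2-DG replicates 2 or 3 or 10 mM 2-DG replicates 1 or 2. Plod3 (0.20 ± 0.05, adjusted p = 0.0313) lost it in 7 of 13 alternatives (log2 changes 0.17 to 0.21, adjusted p = 0.0598 to 0.14, lowest over all of them 0.019), among them those without 5 mM 2-DG replicates 1, 2 or 3 or 10 mM 2-DG replicates 1 or 2. Loxl3 and Loxl2, which fell at both doses, did not pass for the step (-0.03 ± 0.05 and 0.07 ± 0.05, adjusted p = 0.725 and 0.445).

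The responses to the inhibitors at their higher doses were set against each other directly. With 10 mM 2-DG, 33 members were lower than with 10 nM oligomycin and 3 higher, against 33.2% and 37.7% of all genes, with a median member difference of -1.12. Loxl3 (-2.66 ± 0.05), Loxl2 (-2.01 ± 0.05) and Col11a1 (-1.79 ± 0.11) differed most on this scale, while with the pseudocount of 0.1 Col15a1 (-2.29) passed both Loxl2 and Col11a1. Loxl1 and Col4a5, which rose with both inhibitors, were lower with 2-DG by smaller amounts (-0.52 ± 0.08 and -0.58 ± 0.10). Col12a1 did not pass (-0.39 ± 0.19, adjusted p = 0.0801), while Col9a2 (0.71 ± 0.08), Col10a1 (0.55 ± 0.08) and Col27a1 (0.27 ± 0.08, or 0.52 with the pseudocount of 0.1) were higher with 2-DG. The call of Col18a1 (-0.16 ± 0.06) was lost in 4 of 13 alternatives (log2 changes -0.16 to -0.12, adjusted p = 0.0643 to 0.0996, lowest over all of them 0.00493), among them those without 10 nM oligomycin replicate 1 or 10 mM 2-DG replicates 2 or 3.

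Other genes of collagen making were mostly higher with oligomycin too, read against the shares of all genes given above. The list of collagen biosynthesis in the endoplasmic reticulum had 16 tested genes that are no members, of which 14 were higher and 0 lower (limma; 0 at an unadjusted p under 0.05) at 1 nM, 13 were higher and 1 lower at 10 nM, 5 were higher and 1 lower at 5 mM 2-DG and 8 were higher and 1 lower at 10 mM. The list median was 0.47, 0.68, 0.08 and 0.24 in that order. P3h3, a prolyl 3-hydroxylase family gene, rose by 0.92 ± 0.07 and 1.53 ± 0.07 with oligomycin. P4ha1, the main catalytic subunit of prolyl 4-hydroxylase, rose by 0.87 ± 0.04 and 1.52 ± 0.04 with oligomycin and fell with 2-DG, at -0.29 ± 0.04 and -0.25 ± 0.04. P3h4, which partners P3h3, rose by 1.43 ± 0.07 and Creb3l1, a transcription factor anchored in the endoplasmic reticulum, by 1.37 ± 0.06 with 10 nM oligomycin. A further pair of genes was picked after their values were seen. P4hb, the other subunit of prolyl 4-hydroxylase and a general disulfide isomerase, rose in all 4 groups, 0.17 ± 0.05, 0.42 ± 0.05, 0.45 ± 0.05 and 0.51 ± 0.05. Mia3, needed to export procollagen from the endoplasmic reticulum, rose by 0.47 ± 0.04 with 10 mM 2-DG and by 0.33 ± 0.04 with 10 nM oligomycin.

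The list of fibril processing and assembly had 13 tested genes, of which 10 were higher and 0 lower (limma; 0 at an unadjusted p under 0.05) at 1 nM, 10 were higher and 1 lower at 10 nM, 1 was higher and 4 lower at 5 mM 2-DG and 4 were higher and 4 lower at 10 mM. Its medians were 0.86, 1.02, -0.13 and -0.03. Bgn, a small proteoglycan that binds collagen, rose by 1.57 ± 0.04 and Sparc, a collagen-binding glycoprotein, by 1.32 ± 0.04 with 10 nM oligomycin. Pcolce, an enhancer of the C-proteinase, rose by 0.70 ± 0.06 and 1.29 ± 0.06 with oligomycin, and the fibril-binding proteoglycan gene Fmod by 0.89 ± 0.10 and 1.28 ± 0.10. Fmod did not pass with 2-DG (-0.20 ± 0.10 and -0.12 ± 0.10, adjusted p = 0.133 and 0.324). Lum, a fibril-binding proteoglycan, fell with 10 mM 2-DG (-0.59 ± 0.10) and did not pass with oligomycin (0.05 ± 0.10 and 0.04 ± 0.10, adjusted p = 0.688 and 0.728). The list of collagen turnover and receptors had 14 tested genes, of which 12 were higher and 1 lower at 1 nM, 12 were higher and 1 lower at 10 nM, 2 were higher and 8 lower at 5 mM 2-DG and 4 were higher and 6 lower at 10 mM. Its medians were 0.84, 1.18, -0.24 and -0.14. The collagen-binding integrin chain gene Itga11 rose by 1.48 ± 0.11 with 10 nM oligomycin and was at -0.61 ± 0.11 with 10 mM 2-DG. The gelatinase gene Mmp9 was at -1.85 ± 0.09 and the stromelysin gene Mmp3 at -1.66 ± 0.12 with 10 mM 2-DG, both called lower. Mmp3 was also lower with 10 nM oligomycin (-1.24 ± 0.12). Timp3, a metalloproteinase inhibitor bound to matrix, rose with oligomycin at both doses (adjusted p = 1.1e-05 and 7.01e-08), by 0.99 ± 0.13 at 1 nM, and with 10 mM 2-DG by 0.38 ± 0.13, while 5 mM did not pass (0.24 ± 0.13, adjusted p = 0.153).

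Markers of other cell types moved in the same samples. Of 19 tested fibroblast and smooth muscle markers that are no collagens, 16 were higher and 0 lower (limma; 0 at an unadjusted p under 0.05) at 1 nM and 18 were higher and 0 lower (limma; 0 at an unadjusted p under 0.05) at 10 nM oligomycin, with list medians of 0.71 and 1.05. Their summed level was 1220 to 1256 FPKM in mock cells, 2943 to 3024 with 1 nM and 4026 to 4354 with 10 nM, and S100a4 was at or near 0 in all groups (group means up to 0.092 FPKM). Dcn and Lum, defining fibroblast proteoglycans, were at 3.74 ± 0.205 and 3.42 ± 0.397 FPKM in mock cells and 5.17 ± 0.288 and 3.54 ± 0.195 with 10 nM. Other genes of the list moved further. From mock cells to 10 nM oligomycin, mean FPKM went from 30.6 to 74.5 for Thy1, 11.1 to 31.4 for Pdgfrb and 179 to 538 for Fbln2. Acta2, the largest part of the summed level, went from 577 to 2370 FPKM. The 10 embryonic stem cell markers all fell at 1 nM and at 10 nM, with sums of 1142 to 1240 and 455 to 597 FPKM. A larger share of fibroblast-like cells and a rise within cells cannot be told apart for the collagen rises with oligomycin.

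With 2-DG, of the 19 fibroblast and smooth muscle markers, 2 were higher and 5 lower at 5 mM (summed level 1085 to 1123 FPKM) and 7 were higher and 5 lower at 10 mM (1216 to 1289 FPKM). Acta2 fell (-0.56 ± 0.05 at 10 mM) while Snai2 and Vim rose (0.74 ± 0.07 and 0.64 ± 0.06). Of 6 tested macrophage markers, 4 fell at 5 mM 2-DG and 3 at 10 mM, and the summed level of all 8 listed was 122 to 135 FPKM in mock cells, 58.4 to 60.7 FPKM with 5 mM and 52.7 to 55.3 FPKM with 10 mM. Lyz2 was the largest part of that sum, at means of 95.1 FPKM in mock cells, 40.3 with 5 mM and 35.4 with 10 mM. Cd68 stayed at 11.7, 12.7 and 11.2 FPKM in those groups. With oligomycin 3 of the 6 were higher at 1 nM and 5 of 6 at 10 nM, with sums of 132 to 173 and 163 to 175 FPKM. Pf4 was at 11.5 ± 0.51 FPKM in mock cells and 0.624 ± 0.091 with 10 mM 2-DG, and the pan-leukocyte gene Ptprc was at most 0.26 FPKM on average in any group. Of 10 embryonic stem cell markers, 2 were higher and 2 lower at 5 mM 2-DG and 1 was higher and 4 lower at 10 mM, with sums of 1691 to 1773 and 1530 to 1561 FPKM. A few abundant genes weigh most in these sums. From mock cells to 10 mM 2-DG, mean FPKM went from 740 to 568 for Dppa5a and 366 to 146 for Tdgf1, while Sox2 was at 171 and 170. Of 9 tested primitive and parietal endoderm markers, 5 were higher and 0 lower (limma, 0 at an unadjusted p under 0.05) at 1 nM and 4 were higher and 2 lower at 10 nM. With 2-DG, 4 were higher and 3 lower at 5 mM and 5 were higher and 2 lower at 10 mM. Sox17, Foxa2 and Hnf4a of that list were near 0 in all groups (group means up to 0.17 FPKM), while others were expressed. From mock cells to 10 nM oligomycin, mean FPKM went from 1.67 to 3.63 for Gata6, 8.66 to 14.9 for Dab2 and 63.2 to 149 for Nid1. Lama1 went down, from 6.64 to 2.84. From mock cells to 10 mM 2-DG, Sox7 went from 0.678 to 3.13 and Amn from 1.23 to 0.366. Endothelial markers summed to 3.51 to 5.31 FPKM over all samples, and Cdh5 was near 0. At 10 nM oligomycin, of 2 tested endothelial markers 0 were higher (limma; 0 at an unadjusted p under 0.05) and 2 lower, and of 3 tested cartilage markers 0 were higher (limma; 0 at an unadjusted p under 0.05) and 2 lower; at 10 mM 2-DG the counts were 1 higher and 1 lower, and 1 higher and 2 lower. What part these cell types have in the changes of the members was not tested.

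**Figure D4:**
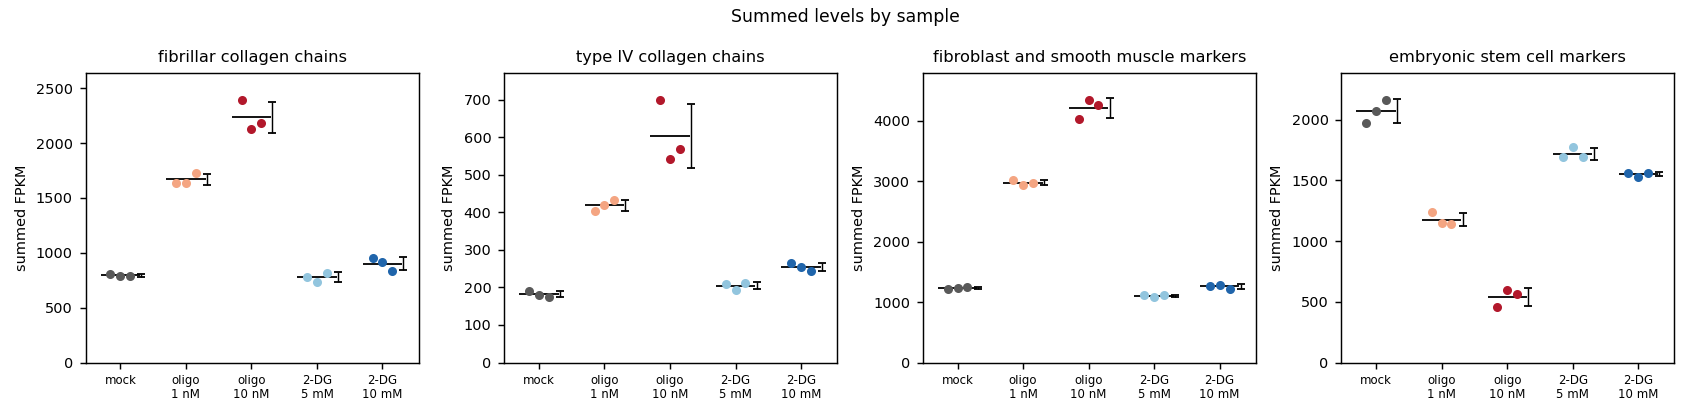
Summed FPKM per sample (vertical axes, each from 0) in the 5 groups (horizontal axes) for the 9 described fibrillar collagen chain genes, the 4 described type IV chain genes, 20 fibroblast and smooth muscle markers without collagens, and 10 embryonic stem cell markers; points are samples, lines group means and bars the SD. The collagen and fibroblast sums rise with oligomycin dose while the stem cell sum goes down, from between 1973 and 2166 FPKM in mock cells to between 455 and 597 FPKM with 10 nM.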

How the data were processed

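RNA of 15 samples (5 groups of 3) was sequenced as total RNA. The authors deposited FPKM values per gene, a read count divided by transcript length and by sequencing depth; the build GRCm38 and the tools HISAT2 2.1.0, Bowtie2 2.2.3 and HTSeq 0.6.0 are named in the submitters' processing notes, and the strand setting is not given in the sources used here. Library depth came from the steps of low FPKM values: 95.4% to 96.1% of them were whole within 0.05 reads. The deposited FPKM values were used as log2(FPKM + 1), so changes of low genes are understated. The 13284 genes that reached 1 FPKM in 3 or more samples were tested with limma 3.58.1 in R 4.3.3, in 1 model of all 15 samples with trended variances, for 7 comparisons, with Benjamini-Hochberg adjustment over all genes and a threshold of 0.05. Members were found by biotype and name, and all 56 IDs were in the GENCODE M21 annotation used for coordinates. One line without a gene was left out. Members with a mean of 20 FPKM in a group, or a called log2 change of 1 or more from mock cells, were given by sample, and of each list up to 4 genes with the largest called changes and the defining markers were named. Alternatives were another pseudocount (0.1), other filters, quantile normalization, median ratio scaling, a fit of the compared groups alone, the replicate block and leaving out each sample. The members and lists were chosen with earlier results of these data known. Promoters were taken from RefSeq. Python 3.11.15, numpy 2.4.6, pandas 2.3.3 and matplotlib 3.10.9 were used.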

Additional observations from a re-analysis of the deposited data

How the results depend on the processing

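No called change of a member reversed under any alternative, while changes that did not pass could change sign, such as Col12a1 from 1 to 10 nM oligomycin (-0.08 to 0.43). The count of members lower in 1 nM oligomycin than in mock cells, 1, was 0 under quantile normalization, median ratio scaling, a fit of the compared groups alone and the replicate block, and 0 to 1 when 1 sample was left out. The count lower with 10 nM, 2, was 4 with no filter and 1 with a filter of 5 FPKM. The count higher with 5 mM 2-DG, 8, was 5 to 7 when 1 sample was left out. Of those lower in 10 than in 1 nM oligomycin, 3, there was 1 with the filter of 5 FPKM. Of those higher in 10 than in 5 mM 2-DG, 7, there were 3 to 6 when 1 sample was left out, and the 0 lower became 1 with the pseudocount of 0.1 and 1 in the fit of the compared groups alone. The 3 higher in 10 mM 2-DG than in 10 nM oligomycin were 0 with the filter of 5 FPKM, which leaves those low genes out. Samples with the same replicate number did not in general deviate together (30 correlations of -0.238 to 0.371, median 0.013, 3 of them over 0.1). Whether the numbers pair the samples cannot be decided from this, since the deviations are from means of only 3 samples and in some samples followed exon length. With the replicate block the counts higher and lower were 33 and 0, 33 and 2, 8 and 14, 11 and 12, 25 and 3, 5 and 0, and 3 and 33, in the order of 1 nM and 10 nM oligomycin and 5 mM and 10 mM 2-DG against mock cells, 10 against 1 nM, 10 against 5 mM, and 10 mM 2-DG against 10 nM oligomycin. The cause of these shifts was not tested, other than where a filter removes the genes. Depth limits Col9a3, Col4a6, Col15a1, Col10a1, Col9a2 and Col27a1 most, with 32 to 126, 38 to 238, 28 to 284, 48 to 247, 80 to 229 and 119 to 253 reads per sample.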
